A study of Mus musculus with 10 samples.

Results

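The adrenomedullin and endothelin signaling genes followed here are 8 of 42565 genes that could be joined across the plates: the ligands Adm and Edn1, the receptors Calcrl and Ednrb, the receptor activity-modifying proteins Ramp1, Ramp2 and Ramp3, and the endothelin-converting enzyme Ece1. They were chosen by name, for their pathway, and were followed in 8 Smart-seq plates of single lymphatic endothelial cells (LECs) and in 2 10x libraries of CD31-sorted cells, all from mouse ear skin. The 8 plates hold LECs sorted as CD31 and podoplanin double positive, with 2 plates per genotype: Tie1 fl/fl, Tie1 iDLEC, Tie1 Tie2 fl/fl and Tie1 Tie2 iDLEC. The iDLEC mice carried Prox1CreERT2, which recombines in Prox1-expressing cells, while the fl/fl controls had floxed alleles and no Cre. Every mouse on the plates, controls included, received 62.5 µg of 4-hydroxytamoxifen on days P1 to P5 and was taken at P28. The plates came from male mice, except plate 1 of Tie1 fl/fl and plate 1 of Tie1 iDLEC, which came from females. The 10x libraries came from wild-type C57Bl/6j males given IgG or an Ang2-blocking antibody (Ang2 Ab) at 20 mg/kg between P16 and P21, with 1 library per condition. These mice were taken at P21, so the plates and the libraries differ in age. How many mice stand behind a plate or library is not given in the sources used here, so p-values measure the spread between plates only.

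Adrenomedullin is a secreted peptide that endothelial cells make and to which they respond. Its receptor is the calcitonin receptor-like receptor, encoded by Calcrl, which reaches the cell surface only with a RAMP partner: with RAMP2 or RAMP3 it binds adrenomedullin, and with RAMP1 it binds calcitonin gene-related peptide. Loss of Adm, Calcrl or Ramp2 causes lymphatic defects in mouse embryos, and the pathway is known for tightening endothelial junctions through cAMP. Endothelin-1, from Edn1, is cut from its precursor by the membrane protease ECE1. It constricts vessels through the endothelin A receptor of smooth muscle, whereas the endothelin B receptor, from Ednrb, lets endothelial cells release nitric oxide and clear the peptide.

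In GRCm38, Adm spans chr7:110627661-110629820 on the plus strand and Edn1 spans chr13:42301476-42307990 on the plus strand. The results below turn mainly on these 2 ligands, so the 250 bases before their start sites are shown, from RefSeq in GRCm38.p6, on the plus strand at chr7:110627407-110627656 and chr13:42301226-42301475. The third line is a stretch just after the Edn1 start, chr13:42301484-42301501, with a GATA motif (AGATAA, read on the other strand) and a hypoxia-response core (ACGTG, also on the other strand) in capitals.
Adm, before the start: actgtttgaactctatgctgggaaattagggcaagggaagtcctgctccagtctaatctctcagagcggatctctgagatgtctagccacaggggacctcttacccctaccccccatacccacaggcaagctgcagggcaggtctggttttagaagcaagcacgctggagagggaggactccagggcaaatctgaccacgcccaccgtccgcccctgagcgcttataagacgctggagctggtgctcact
Edn1, before the start: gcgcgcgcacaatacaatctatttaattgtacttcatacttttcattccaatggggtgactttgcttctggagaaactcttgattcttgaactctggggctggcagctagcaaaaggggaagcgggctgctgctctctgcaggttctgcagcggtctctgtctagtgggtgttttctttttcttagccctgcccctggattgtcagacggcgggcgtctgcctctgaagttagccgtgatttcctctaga
Edn1, after the start: TTATCTctggctgCACGT
Of the 8 members, 7 matched the RefSeq table, with 10 promoters of 250 bases before and 50 after a start between them; Ramp2 had no entry. Both strands were searched for the hypoxia-response core ACGTG, the AP-1 motif TGANTCA, the FOXO motif GTAAACA, the cAMP-response motif TGACGTCA and the GATA motif AGATAA. The Adm window held none of the 5 motifs, and apart from the Edn1 stretch the only match among the members was ACGTG, 90 and 89 bases before an Ece1 start, the same palindromic site read on both strands. ACGTG was found in 19.6% and AGATAA in 11.2% of all 32851 promoters of this length, against 7.81% for TGANTCA, 3.65% for GTAAACA and 1.79% for TGACGTCA, so these matches are a description only.

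The plates held 71309205 to 110741537 counts each, and 312 to 365 wells per plate (2786 of 3026) lay in clusters counted as LECs. Because the wells were sorted as LECs, a plate cluster was counted so unless it raised the markers of another cell type. Raised LEC markers were not required. A cluster of 559 wells raised 0 of the 8 against the other wells, and a cluster of 21 wells led by Alas2 and Hbb-bs was kept. Tie1 was 2178 and 2867 CPM (the usual read count scaled to library size, here with TMM factors) in Tie1 fl/fl, 663 and 656 in Tie1 iDLEC, 2723 and 2528 in Tie1 Tie2 fl/fl, and 763 and 460 in Tie1 Tie2 iDLEC, and Tek, which encodes Tie2, was 32.9 and 52.7 in the last genotype and 210 to 340 on the other 6 plates, so the plates matched their labels. Among the other cell types that the sort could hold, the leukocyte list summed to 7.29 to 21.7 CPM with at least 5 of its 6 genes under 10 CPM on every plate. The mural list summed to 10.9 to 88.3 CPM on 6 plates and to 172 and 151 on the Tie1 Tie2 iDLEC plates, of which Kcnj8 made 151 and 133; the blood endothelial list summed to 1432 to 1781 CPM on 7 plates and to 2175 on plate 1 of Tie1 Tie2 iDLEC. Of its 7 genes, Ly6c1 was under 10 CPM on all plates and Flt1 on all but plate 2 of Tie1 Tie2 iDLEC (12.9), while Plvap, also a collector marker, ranged from 801 to 1539 and Cd34 was 10.7 to 31.5 on 6 plates and 117 and 63.3 in Tie1 Tie2 iDLEC. The IgG library held 4685 barcodes with a median depth of 6957 UMIs, the Ang2 Ab library 4331 at a median depth of 4920, and 5 barcodes occurred in both.

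The 10x libraries, which also contain blood endothelial cells (BECs) and stromal cells, show which cells transcribed each ligand and receptor. Clusters were named by markers, and because the same cells were clustered, differences between classes are descriptions. Values are CPM of all UMIs of a class, first in the IgG and then in the Ang2 Ab library.

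Adm was highest in valve LECs. It reached 1068 and 1382 CPM in valve LECs, and it was 74.7 and 87.2 in collector LECs, 42.9 and 185 in capillary LECs, 48.7 and 66.9 in capillary BECs, 7.64 and 14.0 in venous and 2.01 and 16.1 in arterial cells. Outside the endothelium, fibroblasts held 83.9 CPM of Adm over both libraries together, against 78.6 in collector LECs. In the IgG library the exact 95% interval of counting error for valve LECs, 1031 to 1106 CPM, lay far from that of collector LECs, 62.2 to 88.8, and those of capillary LECs (39.2 to 46.8) and capillary BECs (42.7 to 55.4) overlapped. Edn1 had a nearly opposite distribution. Arterial cells held 724 and 869 CPM, venous cells 309 and 457, and capillary BECs 159 and 233, whereas collector LECs held 48.2 and 91.2, capillary LECs 22.3 and 73.1 and valve LECs 1.68 and 13.1. Cartilage cells, which should make neither transcript in quantity, were at 3.67 and 6.40 CPM for Adm and 13.5 and 13.3 for Edn1, so the valve LEC Edn1 level was no higher than in such cells.

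The receptor genes were spread over the endothelium in distinct ways. Calcrl was highest in venous cells, at 353 and 291 CPM, followed by capillary LECs at 200 and 226 and collector LECs at 204 and 197, whose intervals overlap in each library. Ramp2 was near uniform across the endothelium, between 861 and 1167 CPM in the named arterial, venous, capillary, collector and valve classes, and lower in mural cells at 270 and 145. Ramp1, the partner for calcitonin gene-related peptide, was found outside the endothelium: 131 and 129 CPM in mural cells, 68.5 and 54.1 in cartilage cells and 0.547 and 0.301 in all LECs. Over both libraries together, fibroblasts held 85.2 CPM of Ramp1, against 62.0 in cartilage cells. Ramp3 stayed at 6 UMIs or fewer in all LECs of a library, 0.164 and 0.602 CPM. Among the RAMP genes, LECs therefore had almost only Ramp2 transcripts in these libraries.

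Ednrb was highest in valve LECs (205 and 323 CPM), followed by capillary BECs (153 and 140), and it was found in mural cells (93.9 and 67.0), arterial cells (70.3 and 95.3) and collector LECs (52.9 and 74.2). It was 37.1 and 35.2 CPM in capillary LECs and 5.41 and 8.82 in venous cells. The other endothelin receptor gene, Ednra, stood at 180 and 207 CPM in mural cells and 0.547 and 0.201 in all LECs, so the ear LECs had Ednrb as their endothelin receptor transcript. Ece1 was in every endothelial class, from 307 and 292 CPM in valve LECs and 385 and 404 in capillary BECs to 783 and 626 in capillary LECs.

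**Figure D1:**
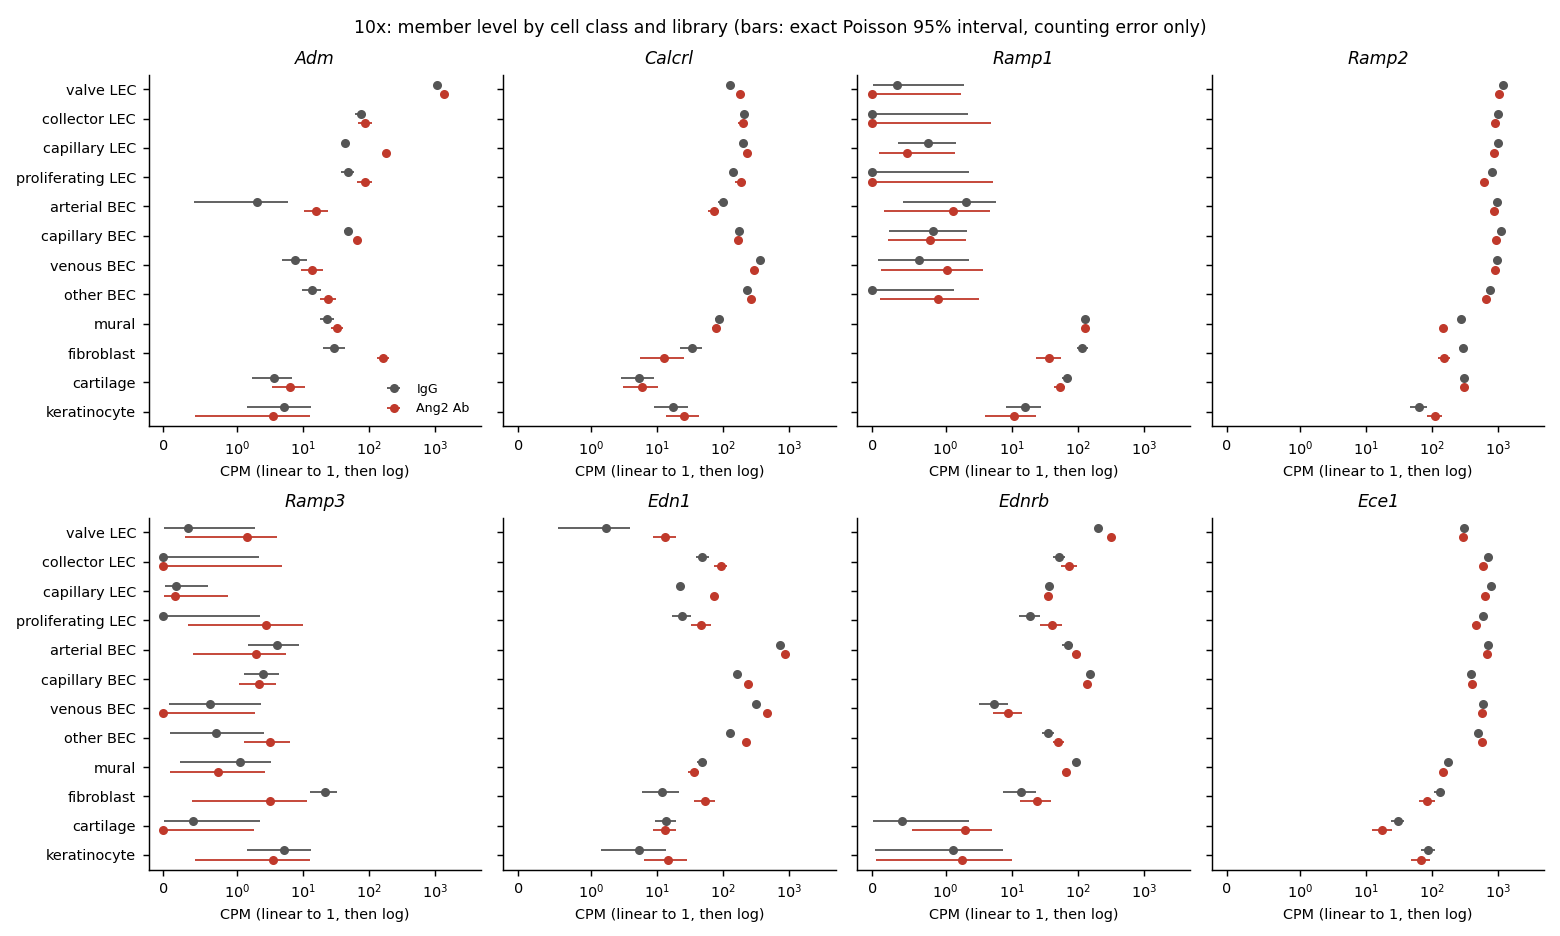
Level of each of the 8 genes in CPM (axis linear from 0 to 1, then log) in 12 cell classes of the IgG (grey) and Ang2 Ab (red) 10x libraries, 1 library each. Bars are exact Poisson 95% intervals that cover counting error only. Adm peaks in valve LECs (1068 and 1382 CPM), Edn1 in arterial cells (724 and 869) and Ramp1 in mural cells (131 and 129).

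On the plates the levels were compared between genes per kilobase of exons, with the exons of all annotated transcripts of a gene merged. The order of genes therefore depends on these merged lengths. Over the 4 control plates, Ece1 had 382 ± 52.3 CPM per kilobase (SD, n = 4), Ramp2 240 ± 39.0, Adm 104 ± 10.6, Ednrb 22.0 ± 6.56, Calcrl 11.5 ± 4.01, Edn1 6.31 ± 3.49, Ramp3 0.380 ± 0.467 and Ramp1 0.0776 ± 0.0767. Ece1, Ramp2 and Adm were separated by more than their spread, whereas the ranges of Ednrb and Calcrl, and of Calcrl and Edn1, met or overlapped. The co-receptor gene Ramp2 was thus far above its receptor gene Calcrl per length in LECs.

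The plate LEC classes repeated the 10x pattern for Adm, Ednrb and Ece1. Levels in this and the next paragraphs on classes are CPM without TMM factors, and those in the comparisons of genotypes are scaled by them. On the 4 control plates Adm was 693 ± 46.8 CPM (SD, n = 4) in valve-like, 135 ± 39.5 in collector-like and 29.4 ± 15.8 in capillary-like wells. Ednrb was 382 ± 108 CPM in valve-like, 88.4 ± 42.3 in collector-like and 9.64 ± 7.79 in capillary-like wells, and over all 8 plates it was higher in valve-like than in collector-like wells on 8 of 8. Ece1 ran the other way, with 2736 ± 527 CPM in capillary-like, 2030 ± 216 in collector-like and 985 ± 135 in valve-like wells, and valve-like wells were below collector-like wells on 8 of 8 plates. Edn1 was 34.6 ± 17.2 CPM in collector-like wells of the control plates, 0.507 ± 0.451 in valve-like and 0.425 ± 0.522 in capillary-like wells. The highest Edn1 level of the named control classes was matched by a cluster without a class name that Thbs1 and Edn1 itself led, at 37.5 ± 43.3 CPM. Edn1 was not among the genes used for clustering, but it was ranked afterwards as a leading gene of this cluster.

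The valve LECs fell into a group rich in Adm and a group rich in Ednrb, in both assays. In the 10x data, the valve cluster led by Fibin and Sbspon (157 and 129 cells) had 1727 and 2314 CPM of Adm and 37.1 and 50.3 of Ednrb. The valve cluster led by Slc41a1, Neo1 and Irx3 (91 and 67 cells) had 3.52 and 57.9 CPM of Adm and 477 and 709 of Ednrb. Of the 157 IgG cells of the first cluster, 96 had a UMI of Adm and none of Ednrb, 5 the reverse, 22 both and 34 neither. Of the 91 IgG cells of the second, 1 had only Adm, 66 only Ednrb, 3 both and 21 neither. Their median depths were 10936 and 11182 UMIs, and Adm was itself among the leading genes of the first cluster.

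On the plates a finer clustering (Leiden resolution 2.0) gave the same division. On the 6 plates other than Tie1 Tie2 iDLEC, a valve cluster led by Hbegf and Sbspon, of 8 to 19 wells per plate, had 1506 to 2169 CPM of Adm and 1.19 to 129 of Ednrb. A valve cluster led by Irx3 and Slc41a1, of 19 to 33 wells, had 1.74 to 119 CPM of Adm and 472 to 864 of Ednrb. Ednrb was itself among the leading genes of this cluster. The ranges do not overlap for either gene, with the clusters made from the same wells. Calcrl followed Ednrb rather than Adm in the 10x valve cells, at 230 and 338 CPM in the Slc41a1-led and 60.0 and 70.3 in the Fibin-led cluster.

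**Figure D2:**
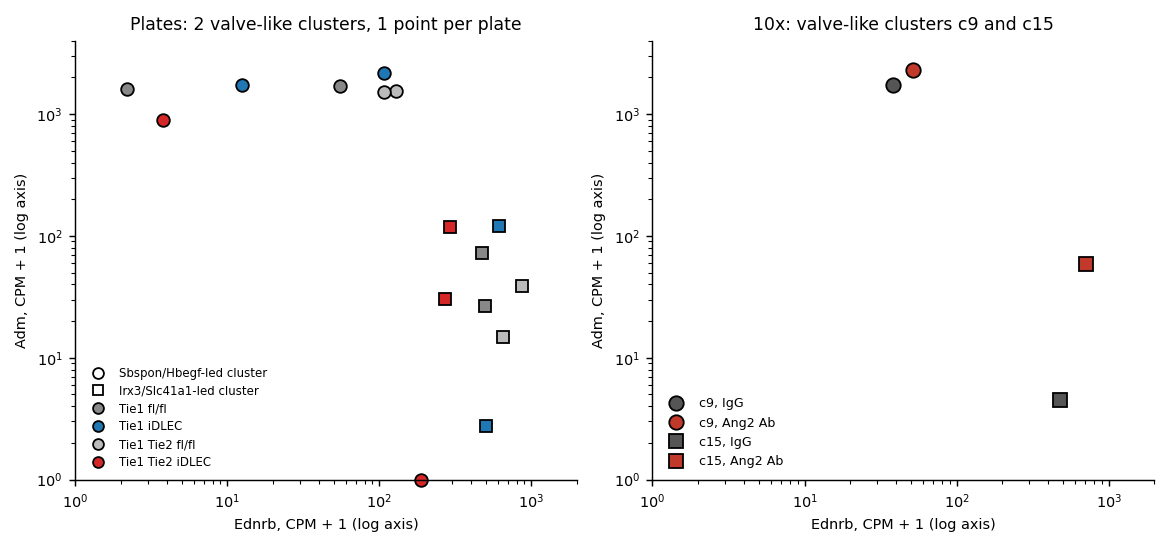
Adm against Ednrb, both as CPM + 1 on log axes, in the valve clusters, 1 point per plate on the left and 1 per 10x library on the right, where c9 is the Fibin-led and c15 the Slc41a1-led cluster. Circles (Sbspon/Hbegf-led and c9) lie at high Adm and squares (Irx3/Slc41a1-led and c15) at high Ednrb, except for 1 Tie1 Tie2 iDLEC circle at an Adm of 0, and the Tie1 Tie2 iDLEC circles rest on 1 and 2 wells.

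The first comparison asks what blocking Ang2 from P16 to P21 does. Each condition has a single library, so nothing was tested and the intervals below are exact Poisson 95% intervals that cover counting error only. Adm and Edn1, the 2 ligand genes, were higher in the capillary LECs of the Ang2 Ab library, whereas the receptor genes differed by less and Ece1 was lower. Adm was 4.30-fold higher there (interval 3.88 to 4.79) and Edn1 3.27-fold higher (2.81 to 3.82). Of 9832 genes with at least 100 UMIs over both libraries in capillary LECs, 1.19% were at least 2-fold higher. Of the 7 members above a lower floor, more than 3 UMIs in a library, 2 were, Adm and Edn1. The median ratio of those 7 members was 0.949 and that of the 9832 genes 1.00.

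Capillary LECs came from 2 clusters, and the ratios held in each. The cluster led by Reln, Lyve1 and Piezo2 (369 and 242 cells) went from 24.0 to 118 CPM for Adm, a ratio of 4.92 (3.96 to 6.16), and from 4.04 to 41.7 for Edn1, a ratio of 10.3 (6.27 to 17.95). The other, which Gdf15 and Lcn2 led ahead of its capillary markers (492 and 214 cells), went from 54.2 to 248 CPM for Adm and from 33.3 to 103 for Edn1, ratios of 4.58 (4.06 to 5.18) and 3.10 (2.62 to 3.67). The class of the Gdf15 and Lcn2 cells depended on the clustering: at Leiden resolutions 0.5 and 2.0 the cluster that these genes led raised 7 of 7 collector markers and counted as collector LECs. Under those resolutions the Adm ratio of capillary LECs was 4.84 and 4.02 and the Edn1 ratio 8.38 and 17.9. The collector LECs of those resolutions had Adm ratios of 3.60 and 4.03. At resolution 2.0 the Gdf15-led cluster held 343 cells, against 706 here. A 361-cell collector cluster there, with Lcn2 among its leading genes, raised 4 of 7 collector markers. How many of the 706 cells stayed in the capillary class at resolution 2.0 was not counted.

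More cells carried the transcripts. After each cell was thinned to 5000 UMIs, 9.41% of 818 capillary LECs with IgG and 28.7% of 414 with Ang2 Ab had an Adm UMI (exact binomial 95% intervals 7.50 to 11.6% and 24.4 to 33.4%), with 43 and 42 shallower cells left out; without thinning, the shares were 18.9% and 41.5%. For Edn1 the thinned shares were 4.52% and 15.7%, and 7.21% and 21.5% without thinning. Cartilage cells gave 1.05% and 3.70% for Adm and 2.11% and 2.47% for Edn1 after the same thinning, with median depths of 20341 and 17469 UMIs against 13168 and 13163 in capillary LECs.

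In the other LECs the Adm ratio varied with the cluster. It was 1.17 in the collector LECs of the resolution used here (0.856 to 1.58), an interval that includes 1 and a value that rests on the Gdf15 cells being outside that class, and 1.34 in the Fibin-led valve cluster (1.27 to 1.41), where the level was already highest. In the Ednrb-rich valve cluster, Adm went from 4 to 51 UMIs, a ratio of 16.4 (6.04 to 62.6). Few cells held these UMIs. Of 91 IgG cells, 1 had Adm without Ednrb and 3 had both, and of 67 Ang2 Ab cells, 3 and 5. The interval does not cover such uneven spread over cells. Edn1 was 1.89-fold higher in collector LECs (1.35 to 2.63), and in blood vessels it was 1.20-fold higher in arterial cells (1.11 to 1.30), 1.48-fold in venous cells (1.35 to 1.62) and 1.47-fold in capillary BECs (1.34 to 1.61). A cluster without a class name, led by Pgf, Apln and Prnd (30 and 54 cells), had 27.2 and 295 CPM of Edn1. In all BECs none of the 8 members, each with more than 3 UMIs in a library, reached 2-fold. Of 10311 genes with at least 100 UMIs there, 0.175% were at least 2-fold higher. The pooled BECs hide differences between classes. In arterial cells 1 of 7 members above that floor, Adm, was at least 2-fold higher and 1 at least 2-fold lower. The shares of 5001 genes there were 0.2% and 0.18%. BECs given no subtype had 1 of 7 members higher, against 0.257% of 6615 genes. Venous cells and capillary BECs, each taken as a whole class, had 0. Their clusters differed. The venous cluster led by Sele and Selp had 2 of 6 members at least 2-fold higher, against 0.427% of 4452 genes. The capillary BEC cluster led by Prnd, Slc28a2 and Kit had 1 of 7 at least 2-fold lower, against 0.243% of 5767 genes. The other venous and the other capillary BEC cluster had 0 in either direction.

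Among the receptor and enzyme genes, Ednrb was 1.57-fold higher in valve LECs (1.41 to 1.76) and at a ratio of 0.949 in capillary LECs (0.804 to 1.12). Calcrl was 1.13-fold higher in capillary LECs (1.06 to 1.21) and at 0.823 in venous cells (0.742 to 0.912), and Ramp2 was at 0.872 in all LECs (0.850 to 0.894) and 0.539 in mural cells (0.476 to 0.611). In the same mural cells the endothelial gene Nos3 was at 0.564 (0.372 to 0.843) and Ednra at 1.15 (1.02 to 1.30). The part of endothelial RNA among the mural cells in these ratios was not tested. Ece1 was at 0.800 in capillary LECs (0.770 to 0.830), with 0.683 in the Reln-led cluster (0.650 to 0.718), and at 0.950 in valve LECs (0.857 to 1.05).

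**Figure D3:**
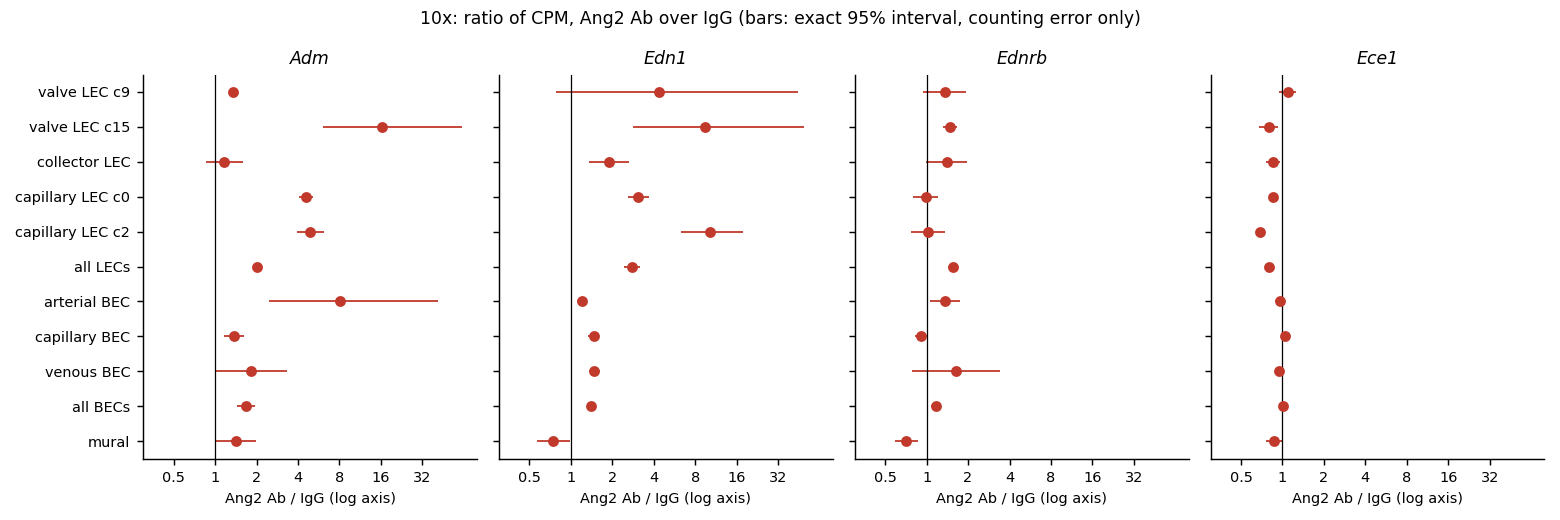
Ratio of CPM in the Ang2 Ab library to CPM in the IgG library (log axis) for Adm, Edn1, Ednrb and Ece1 in LEC, BEC and mural cells, with exact 95% intervals for counting error only. The capillary LEC clusters are c0 (Gdf15-led) and c2 (Reln-led), where Adm (4.58 and 4.92) and Edn1 (3.10 and 10.3) lie above 1 and Ece1 (0.854 and 0.683) below it.

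The plates ask what loss of Tie1, or of Tie1 and Tie2, does in LECs. The LEC wells of each plate were added up, so that fewer cells of a type and less RNA per cell cannot be told apart, and the sums went into edgeR's quasi-likelihood test, adjusted over all genes by the method of Benjamini and Hochberg. With Tie1 deletion, edgeR called 0 of 19991 genes at an adjusted p of 0.05 (852 at an unadjusted p under 0.05). DESeq2 called 170, or 0.85%, and no member was called with either tool. The deleted gene Tie1 was itself among the genes that edgeR did not call. With 2 plates per genotype, a missing call therefore does not show that a member was unchanged. Combined Tie1/-2 deletion changed 228 genes (60 higher, 168 lower; 1.14%), none of them a member; DESeq2 called 1007 (5.04%), Edn1 and Ece1 among them. The difference between the deletions passed for 22 genes (0.11%), no member among them, and for 435 (2.18%) by DESeq2, with Edn1 and Ramp3. The median log2 fold change of the 8 members was −0.09 with Tie1 deletion and 0.88 with Tie1/-2 deletion, against −0.00 and 0.01 over all genes tested. The 8 include Ramp1 and Ramp3, both higher in Tie1 Tie2 iDLEC than in its controls on few reads. In that genotype 1 well held 95.1% of the 308 Ramp1 reads of plate 2. Another 98.3% share, of the 121 Ramp3 reads of plate 1, also came from 1 well. A median without Ramp1 and Ramp3 was not computed. Each of the 2 table layouts in which the plates were deposited holds 1 plate of every genotype, and within each layout Edn1 and Adm were higher and Ece1 was lower in Tie1 Tie2 iDLEC than in Tie1 Tie2 fl/fl. The part of the mural and blood endothelial sums given above in these differences was not tested.

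Of the members other than Ramp1 and Ramp3, Edn1 had the largest difference. It was 22.3 and 13.7 CPM in Tie1 fl/fl, 11.3 and 10.0 in Tie1 iDLEC, 4.05 and 13.9 in Tie1 Tie2 fl/fl and 43.6 and 60.2 in Tie1 Tie2 iDLEC. Both Tie1 Tie2 iDLEC plates were above every other plate, and the Tie1 iDLEC plates were below their controls, a pair of directions without overlap that 1.89% of all genes tested had. The Tie1/-2 log2 fold change was 2.50 (SE 0.60, edgeR adjusted p 0.139), and over 16 alternatives the adjusted p ran from 4.54e-05 to 0.437 with the same sign in all 16; it passed with DESeq2 and without a filter on low counts. For Tie1 deletion it was −0.77 (SE 0.57, adjusted p 1), and the difference between the deletions was 3.27 (SE 0.82, adjusted p 0.341, and 0.000359 to 0.785 over 15 alternatives).

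Few wells carried the Edn1 reads. On the 6 other plates, 5 wells held 71.9 to 97.4% of the reads of a plate, against 34.2 and 32.9% in Tie1 Tie2 iDLEC, where 29 and 42 LEC wells reached 100 CPM. In the other plates that number was 14 and 5 in Tie1 fl/fl, 9 and 8 in Tie1 iDLEC and 3 and 12 in Tie1 Tie2 fl/fl. After thinning to 50000 reads, 12.5 and 18.8% of Tie1 Tie2 iDLEC wells had an Edn1 read, 3.43 and 9.26% of Tie1 Tie2 fl/fl, 8.71 and 3.003% of Tie1 iDLEC and 15.8 and 3.56% of Tie1 fl/fl wells, so by wells with a read the Tie1 fl/fl plate 1 overlapped the Tie1 Tie2 iDLEC plates. Plates deposited with gene symbols had medians of 5782 to 6849.5 genes per well, and those with Ensembl identifiers 3580 to 4982. Within each layout the Tie1 Tie2 iDLEC plate had the highest share, 18.8% against 8.71 to 15.8% with symbols and 12.5% against 3.003 to 3.56% with identifiers. The Thbs1/Edn1-led cluster held 21.4 and 18.9% of the LEC wells in Tie1 Tie2 iDLEC and 6.86 to 10.7% on the other 6 plates.

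Ece1, the enzyme that activates endothelin-1, was 1682 and 2015 CPM in Tie1 fl/fl, 1667 and 1941 in Tie1 iDLEC, 2043 and 2360 in Tie1 Tie2 fl/fl and 1350 and 1310 in Tie1 Tie2 iDLEC. The Tie1 Tie2 iDLEC plates were the lowest of the 8, and 19.1% of genes were below both controls. The Tie1/-2 log2 fold change was −0.76 (SE 0.17, edgeR adjusted p 0.115; 0.0199, by DESeq2, to 0.529 over 16 alternatives), and for Tie1 it was −0.04 (SE 0.17, adjusted p 1).

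Adm was 170 and 154 CPM in Tie1 fl/fl, 193 and 179 in Tie1 iDLEC, 191 and 157 in Tie1 Tie2 fl/fl and 257 and 334 in Tie1 Tie2 iDLEC. Both deletions stood above their controls with no overlap, as did 15.7% of all genes tested with Tie1 deletion and 17.8% with Tie1/-2 deletion. On the log2 scale the difference was 0.19 (SE 0.23, adjusted p 1) for Tie1 and 0.73 (SE 0.23, adjusted p 0.290, and 0.0550 to 0.698 over 16 alternatives) for Tie1/-2 deletion. Valve-like wells held 37.7 to 76.1% of the Adm reads of LECs on the 6 other plates and 0.211 and 3.24% in Tie1 Tie2 iDLEC, which also had 13 and 12 collector-like wells against 68 and 63 in its controls. For this reason the LECs outside both classes were also summed, a choice made after seeing the data. The number of valve-like wells depended on the clustering. At the resolution used here it was 29 and 16 in Tie1 Tie2 iDLEC and 44 and 46 in its controls. At Leiden resolution 0.5 it was 71 and 55, against 53 and 65. The LECs outside both classes were not summed again at another resolution.

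In those LECs Adm was 111 and 82.0 CPM in Tie1 fl/fl, 120 and 54.3 in Tie1 iDLEC, 78.7 and 64.2 in Tie1 Tie2 fl/fl and 284 and 328 in Tie1 Tie2 iDLEC. The Tie1 Tie2 iDLEC plates were above all others (17.4% of genes were above both controls there), and the Tie1 iDLEC plates spanned their controls. The Tie1/-2 log2 fold change was 2.08 (SE 0.40, edgeR adjusted p 0.0683); over 14 alternatives it lay between 1.94 and 2.24, and the adjusted p between 4.59e-07 and 0.330, below 0.05 in 6 of them. For Tie1 it was −0.15 (SE 0.38, adjusted p 1), and the difference between the deletions was 2.23 (SE 0.54, adjusted p 0.438, and 0.000881 to 0.819 over 13 alternatives). In these wells edgeR called 137 of 19113 genes with Tie1/-2 deletion (0.717%) and DESeq2 836 (4.37%), the latter with Adm, Edn1 and Ece1. For the difference between the deletions edgeR called 0.068% of genes and no member, and DESeq2 1.66%, with Adm and Ramp3. Edn1 was 2.28 and 8.36 CPM in Tie1 Tie2 fl/fl and 43.9 and 52.9 in Tie1 Tie2 iDLEC outside those classes (log2 fold change 3.17, SE 0.92, adjusted p 0.267, and 4.04e-05 to 0.724 over 14 alternatives). More wells held Adm: 115 of 322 and 156 of 337 wells reached 100 CPM of Adm in Tie1 Tie2 iDLEC, and 32 of 224 and 40 of 241 in its controls.

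Valve-like LECs of the same plates differed in the opposite direction. Adm was 648 and 755 CPM in Tie1 fl/fl, 679 and 840 in Tie1 iDLEC, 747 and 657 in Tie1 Tie2 fl/fl and 5.81 and 178 in Tie1 Tie2 iDLEC, so the last 2 plates were below the other 6, and 22.9% of genes in this class were below both controls. In valve-like LECs edgeR called 0.0861% of genes with Tie1/-2 deletion and no member, and DESeq2 3.85%, with Edn1. They rest on 29 and 16 wells, of which 0 and 1 reached 1000 CPM, against 15 of 44 and 12 of 46 in their controls, and the Hbegf/Sbspon-led cluster had 1 and 2 wells there against 19 and 18. Its log2 fold change came to −2.86 (SE 1.04, edgeR adjusted p 0.481), and without Tie1 Tie2 iDLEC plate 2 it was −6.86 (adjusted p 0.00148, with 1 plate of 29 wells and 34 Adm reads in that arm, assumed to vary like the other groups); over the 8 alternatives the adjusted p reached 0.981. Edn1 was at most 1.52 CPM on the 6 other plates and 50.7 and 72.0 in Tie1 Tie2 iDLEC (adjusted p 0.246; 3.07e-07 by DESeq2 to 0.836), but 99.6% of the plate 2 reads came from 1 well.

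The capillary-like wells had few Tie1 Tie2 iDLEC members (4 and 10), and no test of Tie1/-2 deletion was made there at this clustering. Adm was 693 and 435 CPM in those 2 sets, 8.99 and 39.6 in Tie1 Tie2 fl/fl, 25.8 and 47.2 in Tie1 fl/fl and 38.2 and 1.38 in Tie1 iDLEC. At Leiden resolution 2.0 the class had 46 and 50 Tie1 Tie2 iDLEC wells and could be tested: the log2 fold change of Adm was 2.70 (SE 0.78, edgeR adjusted p 0.413) and that of Edn1 4.06 (SE 1.77, adjusted p 0.582), with 17 of 14794 genes called and no member. In collector-like wells, Adm was 174 and 399 CPM in Tie1 Tie2 iDLEC and 181 and 102 in its controls, ranges that overlap (log2 fold change 1.09, SE 0.74, adjusted p 0.638).

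**Figure D4:**
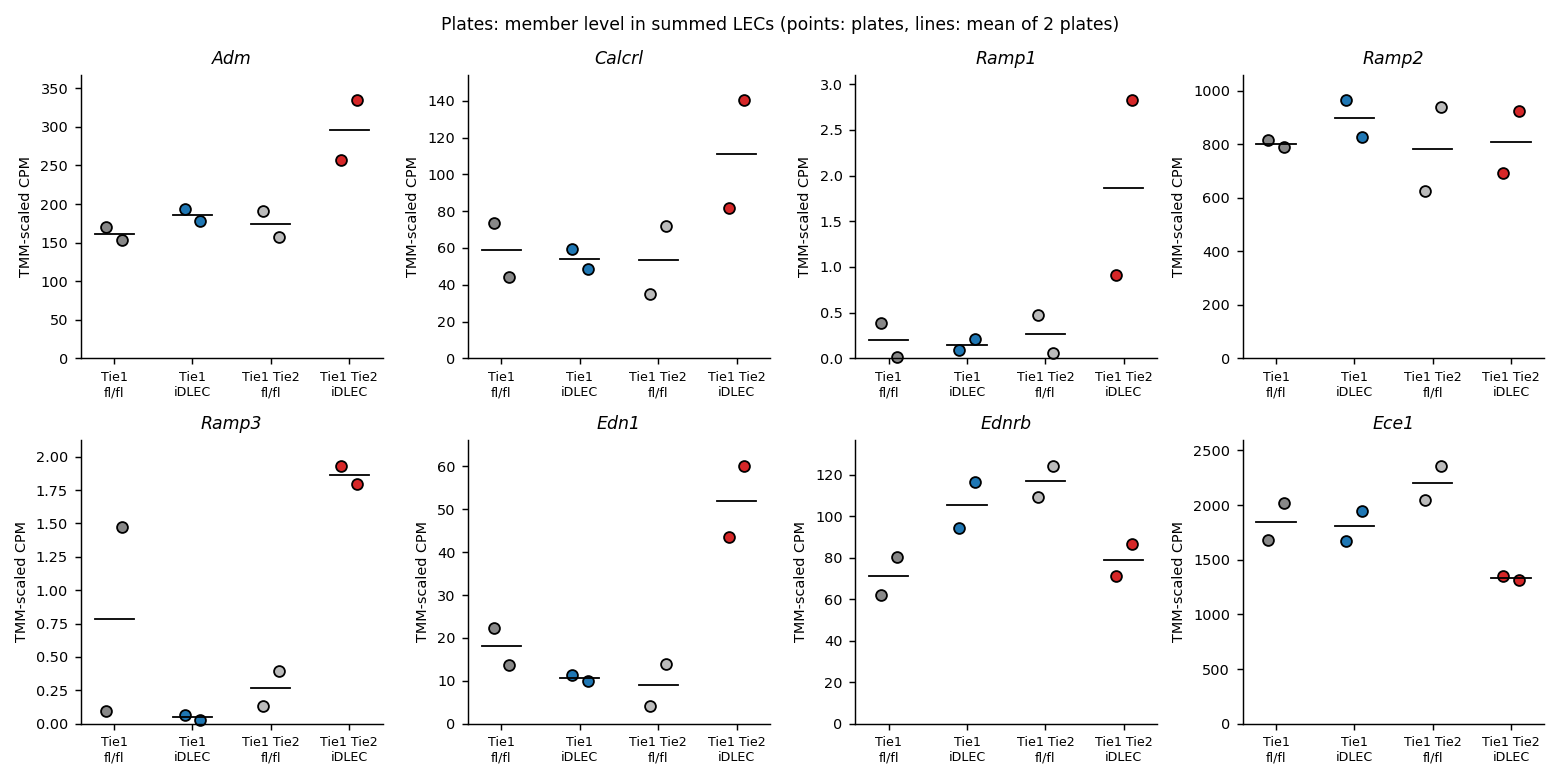
TMM-scaled CPM (linear axes from 0) of the 8 genes summed over all LECs, 1 point per plate and a line at the mean of the 2 plates of a genotype. Edn1 (43.6 and 60.2) and Adm (257 and 334) are highest and Ece1 (1350 and 1310) is lowest in Tie1 Tie2 iDLEC.

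Ednrb and Calcrl, the receptor genes, gave no call. Ednrb was 62.2 and 80.3 CPM in Tie1 fl/fl, 94.1 and 117 in Tie1 iDLEC, 109 and 124 in Tie1 Tie2 fl/fl and 71.3 and 86.7 in Tie1 Tie2 iDLEC. Over all LECs, Ednrb was above its controls with Tie1 deletion and below them with Tie1/-2 deletion, a pattern shared by 2.54% of all genes tested. The log2 fold changes were 0.56 (SE 0.25, adjusted p 1) and −0.60 (SE 0.25, adjusted p 0.456), and their difference was −1.15 (SE 0.36, adjusted p 0.490). In collector-like wells Ednrb was 40.7 and 80.6 CPM in Tie1 fl/fl and 152 and 248 in Tie1 iDLEC (log2 fold change 1.74, SE 0.63, adjusted p 1). In valve-like wells it was 514 and 412 CPM in Tie1 Tie2 fl/fl and 235 and 202 in Tie1 Tie2 iDLEC (log2 fold change −1.01, SE 0.32, adjusted p 0.426). Outside collector and valve, Ednrb went the other way with Tie1/-2 deletion. There its log2 fold change lay between 0.079 and 1.14 over 14 alternatives, above 0 in all 14, with no call. The part of the valve-like share of wells in the all-LEC difference was not tested.

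Calcrl was 73.7 and 44.3 CPM in Tie1 fl/fl, 59.7 and 48.4 in Tie1 iDLEC, 35.1 and 72.1 in Tie1 Tie2 fl/fl and 81.8 and 140 in Tie1 Tie2 iDLEC. The last plates were above the rest (log2 fold change 1.02, SE 0.44, edgeR adjusted p 0.472), and 17.8% of all genes tested were above both controls. Ramp2 was 816 and 789 CPM in Tie1 fl/fl, 964 and 829 in Tie1 iDLEC, 626 and 939 in Tie1 Tie2 fl/fl and 693 and 924 in Tie1 Tie2 iDLEC, and its Tie1/-2 log2 fold change was 0.02 (SE 0.25, adjusted p 0.996), within the spread of the plates. Ramp1 and Ramp3 did not exceed 2.82 and 1.93 CPM on any plate, and edgeR called neither (adjusted p 0.635 and 0.564 for Tie1/-2 deletion). The DESeq2 call of Ramp3 for the difference between the deletions rests on few wells. On Tie1 fl/fl plate 2 its 110 reads came from 1 well. On Tie1 Tie2 iDLEC plate 1, 98.3% of 121 reads came from 1 well, and on plate 2 all 196 reads came from 4 wells.

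**Figure D5:**
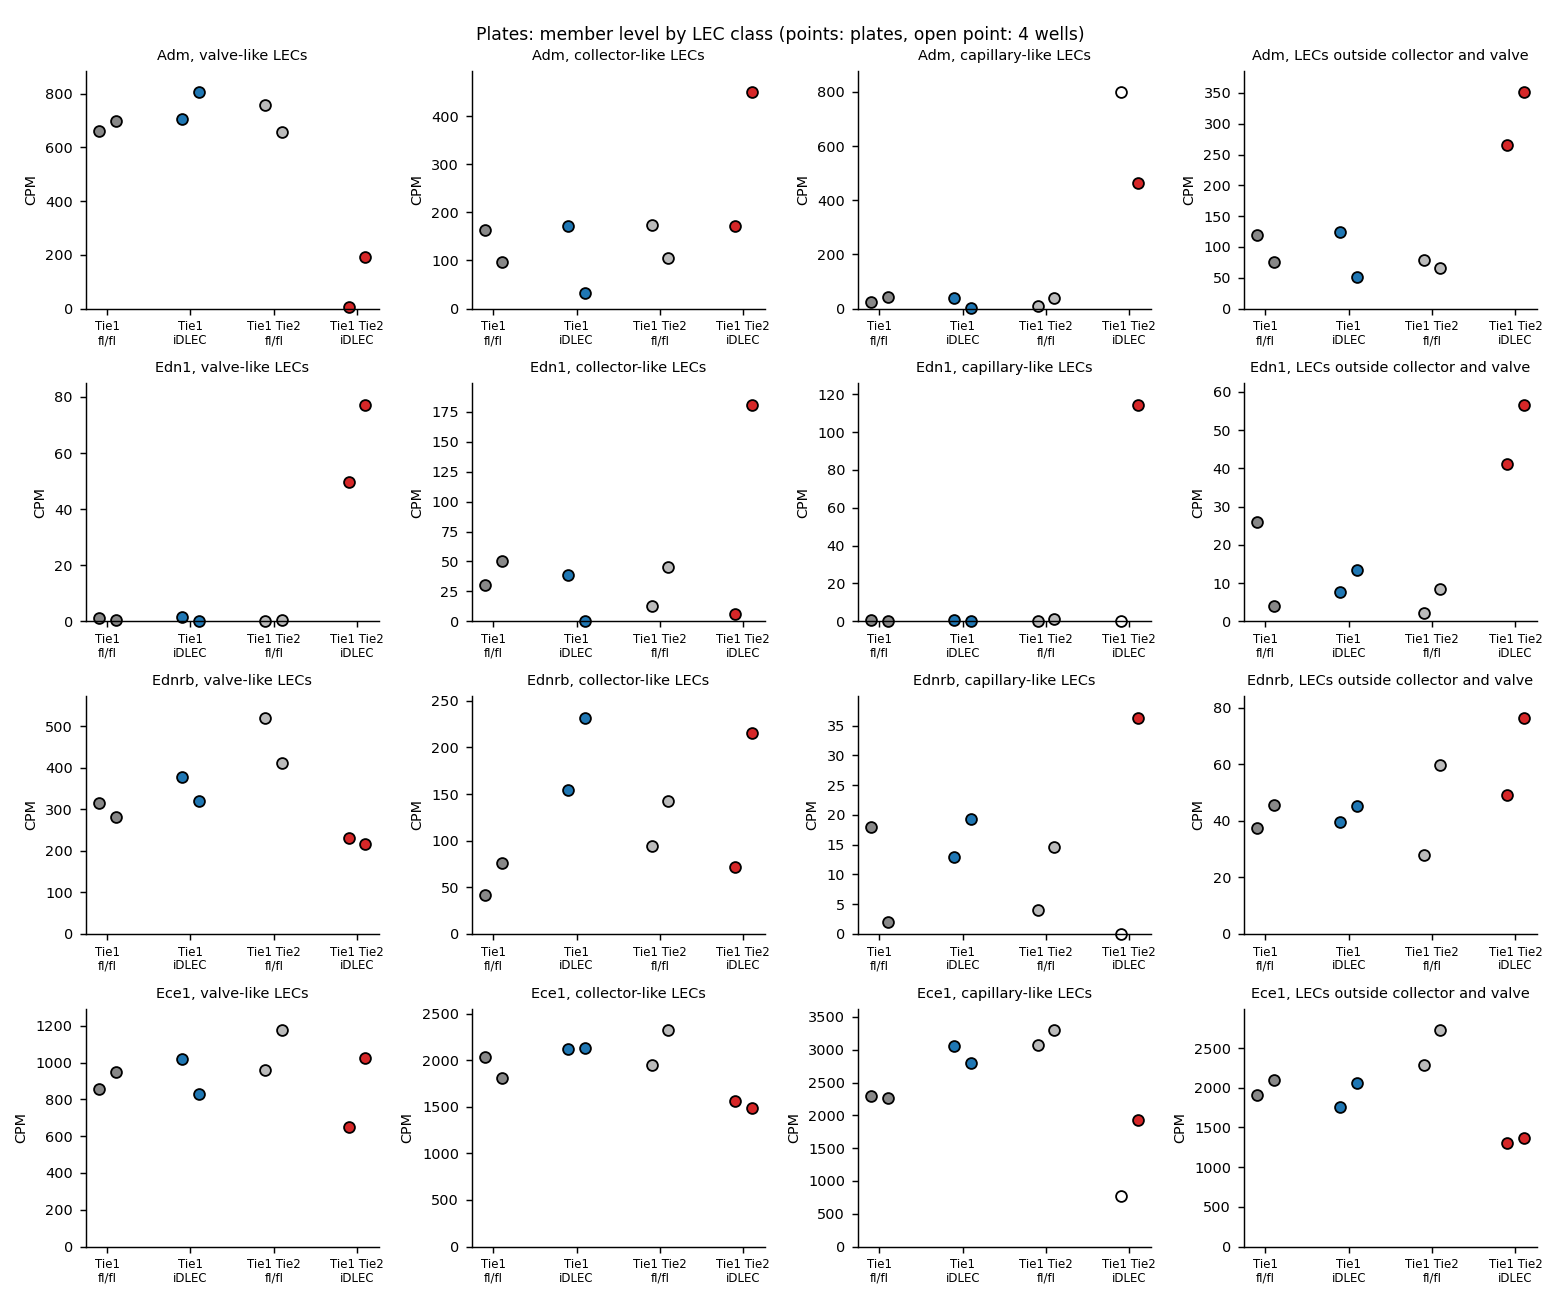
CPM without TMM scaling (linear axes from 0, so values differ slightly from the scaled ones in the text) of Adm, Edn1, Ednrb and Ece1 in valve-like, collector-like, capillary-like wells and LECs outside collector and valve, 1 point per plate, with the set of 4 wells drawn open. For Adm the Tie1 Tie2 iDLEC plates lie below the others in valve-like wells (5.69 and 190 CPM) and above them outside collector and valve.

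Angpt2, which encodes Ang2, was 271 and 511 CPM in Tie1 Tie2 fl/fl and 3320 and 2647 in Tie1 Tie2 iDLEC, 330 and 389 in Tie1 fl/fl and 861 and 1015 in Tie1 iDLEC, and 139 and 854 in LECs with IgG and Ang2 Ab.

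Of 39 further genes of the pathways (other ligands and receptors, the processing enzyme Pam, adenylate cyclases, Epac genes, phospholipases, and the nitric oxide and cGMP branch), 31 could be tested in LECs. With Tie1/-2 deletion 2 passed, both lower, against 1.14% of all genes. Gucy1a1, a subunit of the nitric oxide receptor guanylate cyclase, was 357 and 286 CPM in Tie1 Tie2 fl/fl and 45.4 and 36.2 in Tie1 Tie2 iDLEC, and it fell by 3.01 on the log2 scale (SE 0.27, edgeR adjusted p 0.00280). Nos3, the endothelial nitric oxide synthase gene, was 199 and 273 CPM in Tie1 Tie2 fl/fl and 17.99 and 13.1 in Tie1 Tie2 iDLEC, and it fell by 3.96 (SE 0.41, adjusted p 0.00461). With Tie1 deletion none of the 31 passed, with 1 at an unadjusted p under 0.05 of 852 among all genes, and the median log2 fold changes of the list were −0.05 (Tie1) and −0.19 (Tie1/-2). In the 10x LECs Gucy1a1 was 183 and 105 CPM, a ratio of 0.575 (0.536 to 0.617), Nos3 58.2 and 52.3 and Ackr3, an adrenomedullin scavenger receptor, 191 and 113. Of 30 list genes with more than 3 UMIs in a library there, 1 was at least 2-fold higher (Rapgef4, from 28 to 40 UMIs). Another was at least 2-fold lower (Ednra, from 10 to 2 UMIs, ratio 0.367 with interval 0.0391 to 1.72). Over 10820 genes with at least 100 UMIs, a floor that neither gene reached, the shares were 1.04% and 0.841%.

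Genes with a pattern like a member's over the 12 classes of the 10x data (both libraries pooled, Pearson r of log2(CPM + 1), classes of shared libraries and unequal depth) were Ext1 and Mapk15 for Adm (r = 0.92), Coro1c, Nxpe2 and Abi3 for Calcrl (0.96), Garem1, Plekhh2 and Chpf for Ramp1 (0.96), Piezo1, Nck1 and Sema6a for Ramp2 (0.96 to 0.97), Rps6ka3, Sgms1 and Rps6kb1 for Edn1 (0.94 to 0.95), Akirin1, Rnf10 and Aplp1 for Ednrb (0.92 to 0.93) and Tspan9, Ecscr and Bclaf1 for Ece1 (0.96).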

How the data were processed

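Members and gene lists were chosen with earlier results of these data known. The 8 plates were Smart-seq and the 2 libraries 10x Chromium. The authors deposited whole-number read counts per gene and well for the plates and UMI counts per gene and barcode for the 10x libraries; per the submitters' processing notes the tools included TopHat2 2.1.1, SAMtools 0.1.18, featureCounts and Cell Ranger 2.1.1, with the build GRCm38/mm10. No strand setting was found, so overlapping antisense genes cannot be told apart. Plate tables used symbols or Ensembl identifiers, and 42565 genes (95.8 to 97.1% of counts) were joined; 92 spike-in rows (up to 0.155% of counts) were left out.

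Wells with at least 1000 genes and cells with at least 500 genes and at most 10% mitochondrial UMIs were clustered with scanpy 1.11.5 (2000 variable genes, 30 components, 15 neighbours, Leiden resolution 1.0) and named by marker lists. The 8 members were left out of the genes used for clustering. No doublet was removed in the values reported; removing the top 5% of doublet scores was an alternative. LEC counts were summed per plate and fitted over all 8 plates with edgeR 4.0.16 (quasi-likelihood test, TMM, filterByExpr, Benjamini-Hochberg threshold 0.05), with DESeq2 1.42.0, other factors, filters, a plate-number block, a table-layout term and left-out plates as alternatives. A class was tested where each plate of the contrast had 10 wells. The script was tested on simulated data. For the 10x libraries, ratios and levels carry exact 95% intervals for counting error only. Members and list genes were counted above a floor of 3 UMIs in a library. Shares over all genes used those with at least 100 UMIs over both libraries. All 8 members were named, with pathway genes called in an all-LEC comparison and the 3 genes most like each member with 100 UMIs, of which 1 is not reported here; Angpt2, Tie1 and Tek served to check labels, and other genes were named after their values were seen.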

Additional observations from a re-analysis of the deposited data

Results flagged for a closer look

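In some LEC classes both Tie1 iDLEC plates lay on one side of their controls and both Tie1 Tie2 iDLEC plates on the other; each deletion has 2 plates per arm, and the difference between the deletions was not tested within classes. The values are log2 ratios of the group means. In capillary-like LECs, where 1 Tie1 Tie2 iDLEC plate had 4 wells, Ece1 was 0.36 with Tie1 deletion and −1.41 with Tie1/-2 deletion, and Ramp2 was 0.27 and −0.57; 5.23% of the genes tested in that class had this pattern. In collector-like LECs Ece1 was 0.15 and −0.56, a pattern of 3.96% of genes. In valve-like LECs Ednrb was 0.19 and −1.09 (4.06% of genes), and Calcrl was −1.20 and 1.35 in the opposite arrangement (1.67% of genes).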

How the results depend on the processing

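Of 1189 alternative values, 1078 kept their side of the threshold or stayed within the limits set for counts and levels. These include fold changes that changed sign with no call in either fit. For Edn1 with Tie1 deletion outside collector and valve, the log2 fold change ran from −1.20 to 1.36. No alternative turned the direction of a called value. The number of genes called moved most. In all LECs, Tie1 deletion gave 0 genes, 170 with DESeq2 and 258 without a filter on low counts; Tie1/-2 deletion gave 228, and 1007 and 1174, with 77 to 213 when 1 plate was left out; the difference gave 22, and 435 and 611, 12 with a layout term and 2 to 19 without 1 plate; the average of both deletions gave 4, and 595 and 369, 1 with a layout term, 2 with no cluster removed and 0 to 7 without 1 plate. Members called were 2 with DESeq2 and 1 without a filter, for Tie1/-2 deletion and for the difference. Outside collector and valve, Tie1 deletion gave 182 with DESeq2 and 225 without a filter; Tie1/-2 deletion 137, then 836 and 861, 47 to 151 without 1 plate; the difference 13, then 318 and 435, 0 to 6 without 1 plate. Members called there with Tie1/-2 deletion were 3 with DESeq2, 3 without a filter and 1 with only the 4 plates of the strain. Of the 6 alternatives in which Adm passed, some left out a Tie1 iDLEC plate, which is outside the Tie1/-2 contrast. For the difference, the members called were 2 with DESeq2 and 3 without a filter. Within classes DESeq2 called 165 (Tie1, capillary-like; 1 by edgeR, 0 at resolution 2.0, 0 to 1 without 1 plate), 74 (Tie1, collector-like; 1 at resolution 2.0), 972 (Tie1/-2, collector-like; 37 by edgeR, 11 to 270 without 1 plate), 117 (Tie1, valve-like) and 536 (Tie1/-2, valve-like; 12 by edgeR, 38 at resolution 0.5, 6 to 36 without 1 plate), with 1 member in the last and 0 to 1 without 1 plate. Thinned to 2500 UMIs, 18.9% of Ang2 Ab capillary LECs had an Adm UMI, against 28.7% at 5000, and for Edn1 the shares were 1.88% (IgG) and 10.1% (Ang2 Ab), against 4.52% and 15.7%. The cause of these shifts was not tested. Tie1/-2 deletion in capillary-like LECs was tested at resolution 2.0 alone (17 genes, no member), since 1 plate had under 10 wells at resolution 1.0. Where 1 plate was left out, the remaining plate of its group was assumed to vary like the other groups.

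No label ties a plate number to a litter, batch or day, but same-numbered control and deleted plates of a strain shared a table layout, and both Tie1 plates 1 came from females. The deviations of same-numbered plates correlated at 0.178 and 0.200 over 19991 genes, with 2 pairs per strain. With the replicate block, set only within the Tie1 strain, where the titles of control and deleted plates share numbers, the average of both deletions gave 0 genes, the difference outside collector and valve 6, and Tie1/-2 deletion in collector-like LECs 15 and in all LECs 196. In that fit 1 member, Adm, was called with Tie1/-2 deletion outside collector and valve (edgeR adjusted p 0.0318). The block covers none of the plates of the Tie1/-2 contrast, so it acts there only through the shared estimate of the spread.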
